A study of Mus musculus with 8 samples.

Results

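The genes described here encode ion channels and transporters of the sperm plasma membrane, measured in testis of mice at postnatal day 23 with and without CTCFL. Members were chosen by name, as the probe sets annotated with the symbol Catsper1, Catsper2, Catsper3, Catsper4, Catsperb, Catsperg1, Kcnu1, Atp1a4 or Hvcn1. Of these 9 genes, 6 had a probe set under the listed symbol, and together they had 7 of the 45101 probe sets on the array. The probe sets with a single gene ID stood for 20396 genes in all. Catsperg1 was found through its gene ID under the older symbol A230107C01Rik and is described beside them without being counted. Catsper4 and Catsperb had no probe set and were not analysed here.

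CTCFL (BORIS) is a zinc finger protein of male germ cells and the paralog of CTCF, which most cells use. Total RNA of whole testis was hybridised to Affymetrix Mouse430_2 arrays, with 1 array per sample, 5 samples that carry the label wildtype (numbered 1, 2, 4, 6 and 7) and 3 that carry the label mutant (numbered 3, 5 and 8). The study describes the mutant as Ctcfl del/del, a Cre-made germline deletion that leaves a GFP sequence in the allele, and its littermate controls as Ctcfl del/+, so that the animals labelled wildtype may carry 1 deleted allele. All were on a C57/Bl6 background and were sampled before the age at which the study saw testicular degeneration. The targeted gene gave no check of the labels, since Ctcfl was not analysed here.

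CatSper is the calcium channel of the sperm tail, which opens in alkaline cytoplasm and is needed for hyperactivated swimming. Its pore is built from CATSPER1, CATSPER2, CATSPER3 and CATSPER4, and auxiliary subunits such as CATSPERB and CATSPERG surround it. KCNU1, also called SLO3, is the potassium channel that hyperpolarises sperm during capacitation. ATP1A4 is the sodium pump catalytic subunit of sperm, and HVCN1 is a voltage-gated proton channel that is also found in leukocytes. Genes of this kind are known to be transcribed in late meiotic and haploid germ cells.

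Promoter sequences of the members that were measured are shown because a factor of the CTCF family binds DNA. RefSeq promoter windows (GRCm38.p6) from 250 bases before to 50 bases after the gene start were given for 6 of the 9 genes, and Catsper1, Kcnu1 and Hvcn1 had no entry. The 200 bases before the start are printed 5′ to 3′ on the strand of the gene for Catsper2 (chr2:121413793-121413992, minus strand), Catsper3 (chr13:55784379-55784578, plus strand) and Atp1a4 (chr1:172258425-172258624, minus strand). Capitals mark a match to the short cAMP response element or to a short RFX site.
Catsper2: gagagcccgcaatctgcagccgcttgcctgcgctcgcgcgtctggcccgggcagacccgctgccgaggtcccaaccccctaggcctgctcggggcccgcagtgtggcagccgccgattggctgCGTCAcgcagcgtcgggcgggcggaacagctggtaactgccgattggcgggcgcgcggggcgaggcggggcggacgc
Catsper3: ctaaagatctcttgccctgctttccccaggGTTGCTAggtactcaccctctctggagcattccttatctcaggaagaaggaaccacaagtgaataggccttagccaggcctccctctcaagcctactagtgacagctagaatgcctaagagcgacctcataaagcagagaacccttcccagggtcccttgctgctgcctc
Atp1a4: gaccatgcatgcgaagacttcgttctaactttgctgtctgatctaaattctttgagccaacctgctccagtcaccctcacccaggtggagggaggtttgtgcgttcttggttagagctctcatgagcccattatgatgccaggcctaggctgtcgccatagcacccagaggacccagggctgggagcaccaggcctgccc

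The windows were searched on both strands for 6 motifs, given here with the share of all 32851 RefSeq windows that held each. The Catsper2 window held 1 short cAMP response element (TGACG, 20.8% of windows) at positions -77 to -73 from the gene start, and 1 MYB-type motif (AACNGNC, 32.8%) at -43 to -37. The Catsper3 window held 1 short RFX site (GTTGCTA, 3.66%) at -170 to -164. The Atp1a4 window held none of the 6, and the Catsperb window held 3 MYB-type motifs. The full cAMP response element (TGACGTCA, 1.79%), which contains the short one, the other short RFX site (GTTGCC, 12.5%) and the CTCF-like core motif (1.15%) were in none of the windows of these 6 genes. A match is a description of the letters and not a binding site.

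No member differed between mutant and wildtype testis beyond the spread between arrays. With limma, 0 of the 7 member probe sets passed an adjusted p of 0.05, as did 0 of all 45101 probe sets (0%). At an unadjusted threshold of 0.05 there were 0 members and 1564 probe sets in all (3.47%). Mutant and wildtype values did not overlap for 1216 probe sets (2.70%), and 0 members were among them. The median difference between mutant and wildtype over the main probe sets of the 6 genes was -0.094 on the log2 scale, against 0.003 over all probe sets. Levels below are log2 RMA levels, and each probe set is compared only with itself.

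The arrays differed from each other in a way that the labels do not give. Wildtype replicate 7 and mutant replicate 8 were unlike the remaining 6, so the members' differences are given with and without this pair. The mean log2 level of 10 spermatid markers was 11.02 and 10.55 on these 2 arrays and 8.32 to 9.06 on the others. A mean of 5 fat markers was 7.31 and 7.22 against 5.19 to 5.94. Adipoq, Cfd and Car3 carried this rise, and Fabp4 and Cidec changed far less. The mean of 10 spermatocyte markers lay between 11.5 and 11.9 on all 8 arrays, and was highest on wildtype replicate 7. That of 7 leukocyte markers lay between 6.73 and 6.92. Whole testis RNA cannot tell fewer cells of a type from less RNA per cell.

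Among the pore subunits, Catsper1 had log2 levels of 8.65, 8.81, 8.79, 8.86 and 9.57 in wildtype replicates 1, 2, 4, 6 and 7, and of 8.13, 8.64 and 9.69 in mutant replicates 3, 5 and 8. The highest and the lowest of the 8 values were both from mutant testis, with wildtype replicate 7 next to the highest. The wildtype mean was 8.94 ± 0.36 (SD, n = 5) and the mutant mean 8.82 ± 0.80 (SD, n = 3). They differed by -0.12 (SE 0.32), with an exact two-sided permutation p of 0.821 and a limma adjusted p of 1.0. Without the pair of arrays the difference was -0.39 (SE 0.13), and both mutant values lay below the 4 wildtype values, with a limma adjusted p of 0.751. Between mutant replicate 8 and wildtype replicate 7 it was 0.12, from 1 array each, so the sign was not the same in the pair and in the other 6 arrays.

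Catsper3 followed nearly the same course over the arrays as Catsper1. Its log2 levels were 8.18, 8.24, 8.31, 8.42 and 9.17 in wildtype and 7.63, 8.24 and 9.12 in mutant testis, in the same order of replicates. Wildtype replicate 7 and mutant replicate 8 were again the 2 highest and mutant replicate 3 the lowest. The means of 8.47 ± 0.41 (SD, n = 5) and 8.33 ± 0.75 (SD, n = 3) differed by -0.14 (SE 0.32), with an exact permutation p of 0.821. Without the pair the difference was -0.35 (SE 0.15), with overlap and a limma adjusted p of 0.761. After centring each gene on its own mean, Catsper1 and Catsper3 differed by a root mean square of 0.063 over the 8 arrays, the smallest such difference between any of the 6 member genes and Catsperg1.

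Catsper2, a pore subunit of the same channel, varied far less. Its main probe set had log2 levels of 11.54, 11.60, 11.69, 11.70 and 11.81 in wildtype and 11.55, 11.67 and 11.66 in mutant testis, a range of 0.27 against 1.56 for Catsper1 and 1.54 for Catsper3. The groups overlapped fully, and the difference was -0.040 (SE 0.076) with an exact permutation p of 0.536. The 95% interval from limma ran from -0.21 to 0.13. Without the pair the difference was -0.023 (SE 0.085). A second probe set of Catsper2 gave 7.77, 7.64, 7.82, 7.86 and 8.09 in wildtype and 7.55, 7.90 and 8.15 in mutant testis. That probe set had the pair of arrays as its 2 highest, unlike the main one, and differed by 0.028 (SE 0.14) over all arrays and by -0.051 (SE 0.11) without the pair, so no sign is given for this gene.

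**Figure D1:**
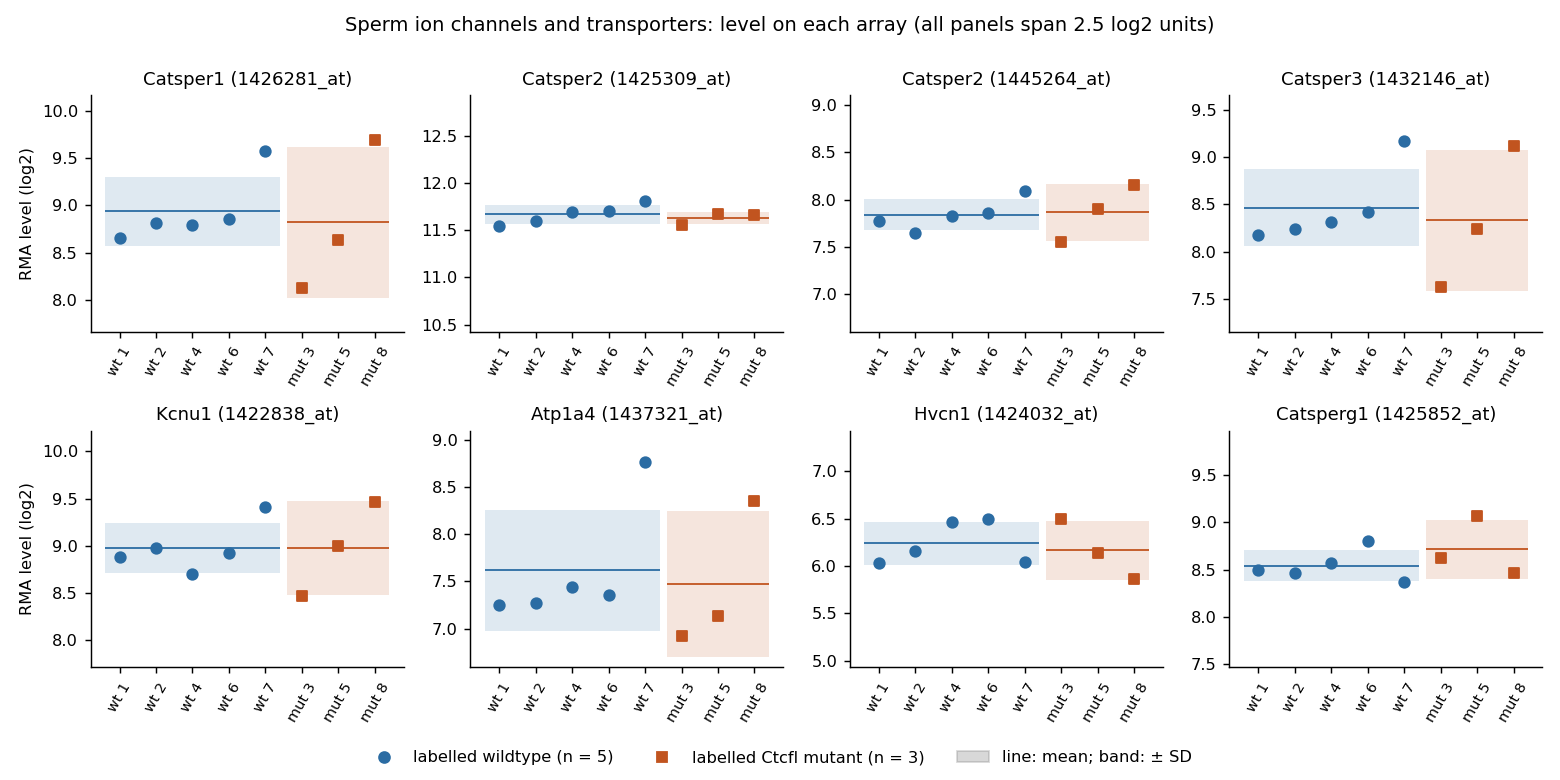
Log2 RMA level of each probe set (y axis, every panel spanning 2.5 log2 units) on each array (x axis), with circles for the 5 arrays labelled wildtype, squares for the 3 labelled mutant, lines for group means and bands for ± SD. Catsper1, Catsper3, Kcnu1 and Atp1a4 have wildtype replicate 7 and mutant replicate 8 as their 2 highest arrays, whereas Hvcn1 and Catsperg1 do not.

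Catsperg1 encodes an auxiliary subunit of the channel and was measured under its older symbol. Its log2 levels were 8.49, 8.47, 8.57, 8.81 and 8.37 in wildtype and 8.63, 9.06 and 8.46 in mutant testis. Wildtype replicate 7 and mutant replicate 8 were its 2 lowest arrays, as they were for 4649 of all 45101 probe sets. For Catsper1 and Catsper3 they were the 2 highest. The rank was narrow, with mutant replicate 8 at 8.46 and wildtype replicate 2 at 8.47. Both arrays departed from the others of their label by less than those others spread, 0.34 in wildtype and 0.44 in mutant. A probe set shared with Catsperg2, described below, had wildtype replicate 7 as its highest array. The difference between mutant and wildtype was 0.17 (SE 0.14), with an exact permutation p of 0.357, and 0.26 (SE 0.14) without the pair, with a limma adjusted p of 0.792. Over all arrays but mutant replicate 5, its highest, the difference was 0.00012.

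Kcnu1 showed no difference of the means. The levels of this sperm potassium channel were 8.88, 8.97, 8.70, 8.92 and 9.42 in wildtype and 8.47, 9.0 and 9.47 in mutant testis. The highest, the lowest and the second highest arrays were those of Catsper1. Mutant minus wildtype was -0.0016 (SE 0.21), with an exact permutation p of 0.964, and the 95% interval ran from -0.48 to 0.48. Without the pair it was -0.14 (SE 0.14), with a limma adjusted p of 0.905.

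Atp1a4, the sperm sodium pump subunit, had the widest range of the members, 1.83 on the log2 scale. It had levels of 7.26, 7.27, 7.44, 7.36 and 8.76 in wildtype and 6.93, 7.13 and 8.35 in mutant testis. Within each label 1 array lay more than 1 unit above the others. The means of 7.62 ± 0.64 (SD, n = 5) and 7.47 ± 0.77 (SD, n = 3) differed by -0.15 (SE 0.40), with an exact permutation p of 0.75. The difference was negative in both sets of arrays, at -0.30 (SE 0.093) among the 6 arrays, without overlap and with a limma adjusted p of 0.751, and at -0.40 between the 2 arrays that stood apart. With a term for the pair the difference was -0.33 (SE 0.078), with a limma adjusted p of 0.803.

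Hvcn1, the proton channel, lay near the array medians of 6.40 to 6.45. Its course over the arrays was unlike that of Catsper1, Catsper3, Kcnu1 and Atp1a4. Its log2 levels were 6.04, 6.16, 6.47, 6.49 and 6.05 in wildtype and 6.49, 6.14 and 5.87 in mutant testis. Mutant replicate 3, lowest for Catsper1, Catsper3, Kcnu1 and Atp1a4, was among the highest for Hvcn1, and mutant replicate 8 was the lowest. The difference was -0.073 (SE 0.16), with an exact permutation p of 0.679, and 0.029 (SE 0.15) without the pair. Its centred values differed from those of Atp1a4 by a root mean square of 0.755, the largest between any of the 6 member genes and Catsperg1. From those of Catsper2 they differed by 0.246.

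Taking the 6 arrays alone, mutant lay below wildtype without overlap for 2 of the 7 member probe sets, Catsper1 and Atp1a4, and for 6.97% of all probe sets. In either direction, groups did not overlap for the same 2 members and for 6707 of all 45101 probe sets. Only Atp1a4 was in addition lower in mutant replicate 8 than in wildtype replicate 7, which held for 3.14% of all probe sets. At an unadjusted threshold of 0.05, limma on the 6 arrays counted 3 of the 7 member probe sets, those of Catsper1, Catsper3 and Atp1a4, and 6.55% of all, with 0 members past the adjusted one. The median difference over the 6 genes was -0.22 without the pair, against -0.002 over all probe sets. Among the 6 arrays, mutant replicate 3 also had the lowest mean of the spermatid markers, at 8.32, with 8.54 in mutant replicate 5 and 8.42 to 9.06 in wildtype, and it was the lowest of the 8 arrays for 5 of the 10 markers. The fat markers had means of 5.19 and 5.29 in these mutant samples and 5.41 to 5.94 in wildtype. Of the 5 fat markers, 2 were lower without overlap, Cfd and Car3. Of the 10 spermatid markers, 1 was lower without overlap, Gapdhs. Of the 10 spermatocyte markers, 3 were, Sycp1, Spo11 and Piwil1, and these 3 were also lower in mutant replicate 8 than in wildtype replicate 7. The spermatocyte marker means overlapped, at 11.54 and 11.69 in mutant replicates 3 and 5 and 11.63 to 11.72 in wildtype. The marker means of 3 other cell types lay higher in mutant replicates 3 and 5 than in the 4 wildtype samples. They were 8.54 and 8.55 against 8.28 to 8.41 for spermatogonia and 8.28 and 8.21 against 8.06 to 8.16 for Sertoli cells. For Leydig cells they were 9.46 and 8.96 against 8.86 to 8.90. Higher without overlap in these mutant samples were 2 of the 7 spermatogonia, 3 of the 6 Sertoli and 1 of the 5 Leydig markers. So were 3562 of all 45101 probe sets. The part of these cell types in the members' differences was not tested. Mutant replicate 3 was the lowest of the 8 arrays for 5 of the 7 member probe sets and for 12.2% of all.

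**Figure D2:**
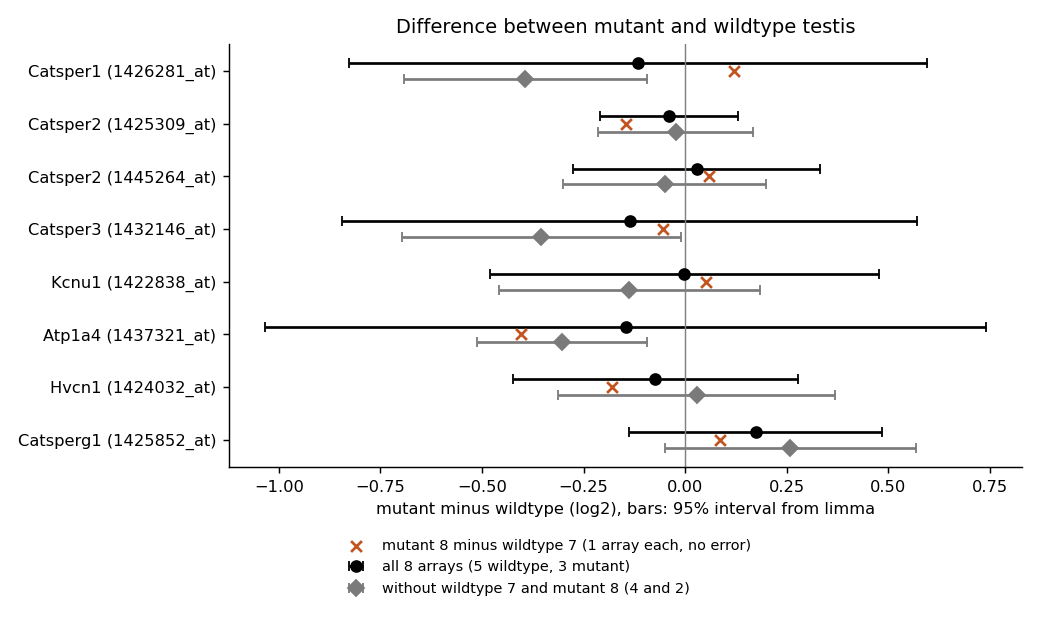
Mutant minus wildtype log2 level (x axis) for each probe set (y axis), with circles for all 8 arrays, diamonds for the 6 arrays without wildtype replicate 7 and mutant replicate 8, bars for the 95% interval from limma without adjustment, and crosses for mutant replicate 8 minus wildtype replicate 7, which has no error. All intervals over the 8 arrays span 0, and without the pair those of Catsper1, Catsper3 and Atp1a4 lie below 0, at limma adjusted p of 0.751 to 0.761.

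The members separated by how they behaved on the pair of arrays. A departure is the level on 1 array minus the mean of the other arrays with the same label, given as a description without a test. Atp1a4 departed by 1.43 on wildtype replicate 7 and 1.32 on mutant replicate 8, or 2.69-fold and 2.5-fold. Catsper1 departed by 0.80 and 1.31, and Catsper3 by 0.89 and 1.18. Kcnu1 followed at 0.55 and 0.74, while Catsper2 departed by 0.17 and 0.053 with its main probe set and by 0.32 and 0.43 with the second. Hvcn1 departed by -0.24 and -0.45, and Catsperg1 by -0.21 and -0.38.

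Departures of at least 1 on both arrays were found for 1 of the 7 member probe sets, Atp1a4, and for 0.783% of all probe sets. The pair were the 2 highest of the 8 arrays for 5 of the 7 (Catsper1, the second probe set of Catsper2, Catsper3, Kcnu1 and Atp1a4) and for 8.60% of all. The median departure of the 6 genes on the pair was 0.67 (wildtype) and 0.96 (mutant), against -0.038 and -0.002 over all probe sets. Of the 10 spermatid markers, 9 departed by at least 1 on both arrays, and the mean departure of all 10 was 2.16 and 2.12. Both arrays were known from earlier results of these data to stand apart, so the marker departures are a description only. Of the 5 fat markers, 3 departed by at least 1 on both arrays, Adipoq, Cfd and Car3. Fabp4 departed by 0.19 and 0.017, and Cidec by 0.62 and 0.27. The part of spermatid or fat RNA in the members' departures was not tested.

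**Figure D3:**
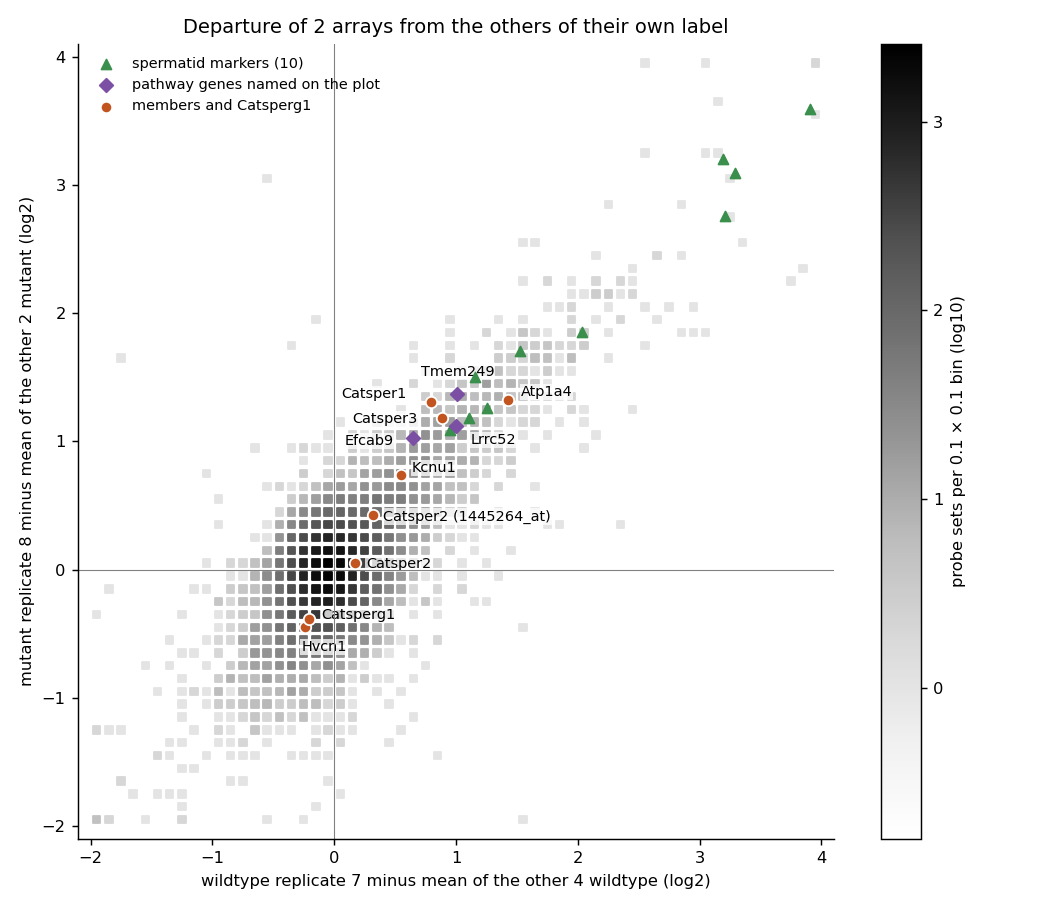
Departure of wildtype replicate 7 (x axis) and of mutant replicate 8 (y axis) from the mean of the other arrays of the same label, in log2 units, with grey squares for the number of probe sets per bin (log10 scale), circles for members and Catsperg1, diamonds for 3 other pathway genes and triangles for spermatid markers. Bins beyond the frame are drawn at its edge. Atp1a4, Catsper1 and Catsper3 lie in the upper right with the lower spermatid markers, the main probe set of Catsper2 near 0, and Hvcn1 and Catsperg1 in the lower left.

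The other genes of the pathway were taken from a list of 28, of which Catspere1 and Slc9c1 had no probe set. None of the 26 that were measured passed the adjusted threshold with limma, and 3 passed 0.05 without adjustment, against 3.47% of all probe sets. Mutant was higher for 13 and lower for 13, with a median difference of -0.002. The pair of arrays were the 2 highest for 10 of the 26, against 8.60% of all probe sets, and 1 departed by at least 1 on both arrays, against 0.783%.

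Subunits and partners of CatSper did not share 1 course. Efcab9, the calcium sensor of the channel, had log2 levels of 9.41, 9.76, 9.67, 9.81 and 10.31 in wildtype and 8.92, 9.67 and 10.32 in mutant testis. As for Catsper1 and Catsper3, mutant replicate 3 was lowest and the pair of arrays highest. Tmem249, another subunit of the complex, departed by 1.01 and 1.37, from levels of 4.95 to 5.70 on the other 6 arrays, which lie below the array medians. Catsperz, which binds EFCAB9, stayed between 12.5 and 12.7, a mean level at percentile 99.1 of all probe sets. Catsperd, an auxiliary subunit, departed by 0.41 and 0.25. The pair were the 2 highest arrays for both of these genes, and for 5 of the 8 CatSper subunits and partners. Catspere2, also auxiliary, departed by 0.50 on wildtype replicate 7 and by -0.19 on mutant replicate 8. C2cd6, needed for placing the channel in the tail, differed by -0.28 (SE 0.11) between mutant and wildtype, with a limma adjusted p of 1.0, and by -0.17 (SE 0.094) without the pair.

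Lrrc52, the auxiliary subunit of SLO3, departed further than Kcnu1 itself. It had log2 levels of 6.45, 6.50, 6.53, 6.57 and 7.51 in wildtype and 6.21, 6.41 and 7.43 in mutant testis. The 2 arrays that stood apart were about 1 unit above the rest, with departures of 0.998 and 1.12. Mutant minus wildtype was -0.030 (SE 0.31), with an exact permutation p of 0.75. Without the pair it was -0.21 (SE 0.086), without overlap and with a limma adjusted p of 0.761.

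Atp1b3, a beta subunit of the sodium pump, departed by 0.27 and 0.19. For bicarbonate signalling, Adcy10, the soluble adenylyl cyclase, departed by 0.36 and 0.27, and Cftr, an anion channel, by 0.54 and 0.50.

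**Figure D4:**
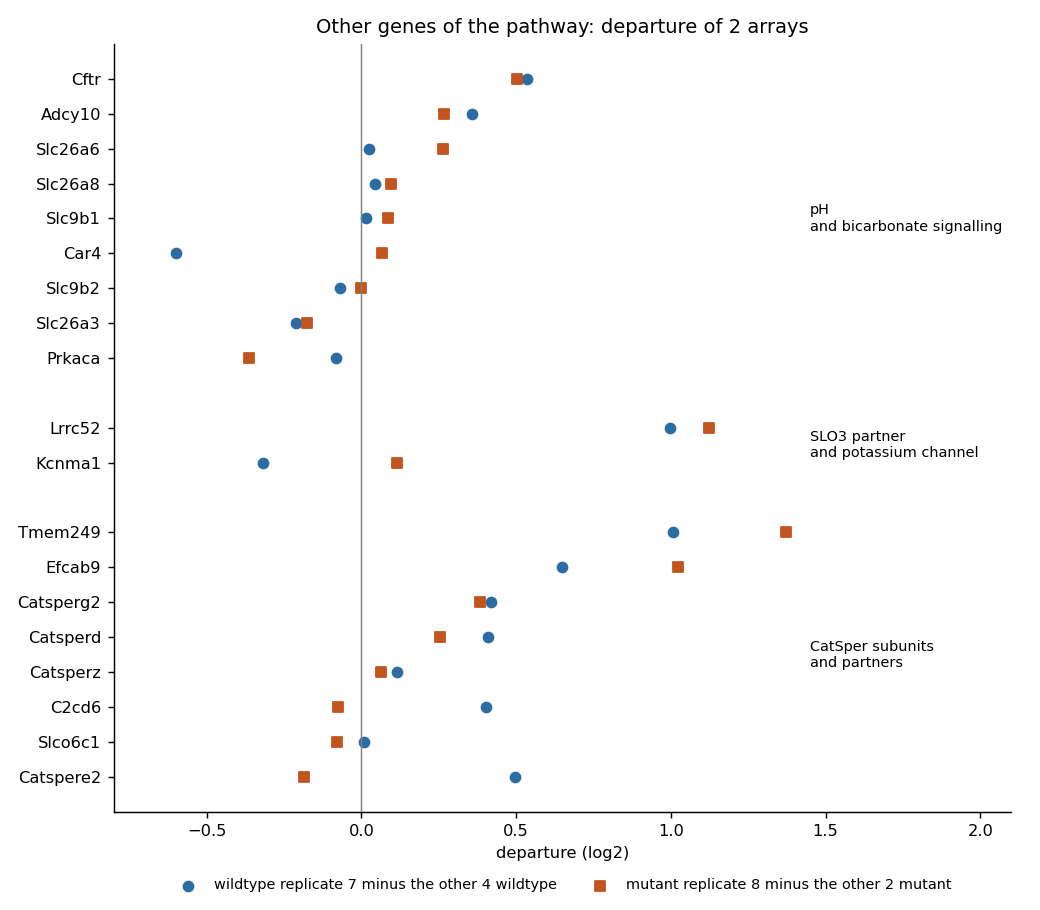
Departure in log2 units (x axis) of wildtype replicate 7 (circles) and mutant replicate 8 (squares) for the other pathway genes without the pumps (y axis), grouped by role as 8 CatSper subunits and partners, 2 of SLO3 and potassium, and 9 of pH and bicarbonate signalling. Tmem249, Lrrc52 and Efcab9 lie furthest to the right, at 1.01, 0.998 and 0.65 on wildtype replicate 7.

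Over 20657 other genes, counted by symbol and so also where no gene ID was given, those with the course most like the mean of Catsper1, Catsper2 and Catsper3 were Tssk1, D11Wsu47e, 1700113H08Rik, Tex13a and BC049762. Likeness was the root mean square difference of centred log2 levels over the 8 arrays, which was 0.030 for Tssk1 and up to 0.053 for BC049762. The mean course itself ran through -0.20, -0.10, -0.056, 0.0076 and 0.53 in wildtype and -0.55, -0.14 and 0.51 in mutant testis. Tssk1, a kinase of spermatids, ran through -0.17, -0.086, -0.065, -0.058 and 0.56 and then -0.57, -0.14 and 0.52. In both, 1 array of each label was far above the others and mutant replicate 3 was the lowest. For Tssk1 this follows from its choice by likeness to the mean course. That course had a range of 1.08, against 1.56 for Catsper1, 1.54 for Catsper3 and 0.27 for the main probe set of Catsper2.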

How the data were processed

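Sample titles gave the groups and the replicate numbers. The study's methods name quantile normalization in Affymetrix software, and R/Bioconductor with RMA for background correction and normalization and limma for testing, all run by the authors. The deposited table held these log2 levels for each probe set and array, with array medians of 6.40 to 6.45. The deposited columns and tables of the authors' own comparisons (fold changes and p-values) were not used. The annotation's genome build is not given in the sources used here. A gene ID was given alone for 36858 probe sets, of which 33571 matched the RefSeq gene table (GRCm38.p6).

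No filter was set on the deposited levels. A linear model without covariates was fitted to all 45101 probe sets with limma 3.58.1 in R 4.3.3 (lmFit, eBayes), and two-sided p-values were adjusted by Benjamini-Hochberg. The fit was also run on simulated data whose noise was independent between arrays. No pair of arrays stood apart there, so that run does not cover this feature of the data. Single probe sets were also tested by exact two-sided permutation over the 56 ways to divide 8 arrays into 5 and 3, where the smallest p is 0.0357. The study calls the animals littermates, but no source used here says which samples share a litter, and p-values measure the spread between these samples. The number of arrays limits the precision. Python 3.11.15, numpy 2.4.6, pandas 2.3.3, scipy 1.17.1 and matplotlib 3.10.9 were used.

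All 9 members were named with every probe set. The main probe set was that without a cross-hybridisation suffix where one exists, then that with the highest mean level. Some pathway genes are not reported here singly. The others could be named, with values for CatSper partners and the largest departures, and the 5 genes most like the CatSper mean. Members and lists were chosen with earlier results of these data known. Marker lists also covered spermatogonia, Sertoli, Leydig, peritubular and testis identity genes. Hormad1, Clu, Insl3, Cd79a and Plin1 had no named probe set. Alternatives were leaving out each array or the pair, a term for the pair, centring, probe sets above the median level, repeated quantile normalization, array weights, an intensity trend with a robust prior, an offset of 64 on the linear scale, a one-way comparison and other probe sets. Including Catsperg1 was added after the data were seen.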

Additional observations from a re-analysis of the deposited data

Results flagged for a closer look

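For 9 of 43 measures examined, the value of wildtype replicate 7 lay far from those of the other 4 wildtype arrays. About 1 in 20, or 2.15, would be expected of unrelated measures. This array was known beforehand to stand apart, and measures such as Catsper1 and Catsper3 move together, so the counts cannot be compared. All 9 were on that array and above the others. The members were Catsper1, at a log2 level of 9.57 with the nearest other wildtype array at 8.86, Catsper3 at 9.17 against 8.42, and Atp1a4 at 8.76 against 7.44. Among pathway genes, C2cd6 was at 10.25 against 9.88, Lrrc52 at 7.51 against 6.57, and Atp1b3 at 11.71 against 11.48. Among marker means, spermatids were at 11.02 against 9.06, Leydig cells at 9.26 against 8.90, and fat at 7.31 against 5.94. The 3 mutant arrays were too few for the same examination. The cause was not tested.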

How the results depend on the processing

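No member or pathway probe set passed an adjusted p of 0.05 with limma under any alternative tried. The lowest adjusted p over the alternatives was 0.751 for Atp1a4 and Catsper1, 0.761 for Catsper3, 0.792 for Catsperg1, 0.865 for Kcnu1, 0.934 for Catsper2 and 0.954 for Hvcn1. Over all probe sets, 1 passed with a term for the pair of arrays. The unadjusted count of 1564 became 2956 without both arrays, 2644 with the term for the pair and 707 among probe sets above the median level, where fewer were tested, and it ran from 1220 to 2649 when 1 array was left out, highest without mutant replicate 8. The median difference of the members ran from -0.39 without mutant replicate 8 to 0.17 without mutant replicate 3. By gene, leaving out 1 array gave -0.55 to 0.23 for Catsper1, -0.53 to 0.21 for Catsper3, -0.25 to 0.25 for Kcnu1, -0.59 to 0.14 for Atp1a4, -0.24 to 0.077 for Hvcn1, -0.072 to -0.0034 for Catsper2 and 0.00012 (without mutant replicate 5) to 0.30 (without mutant replicate 8) for Catsperg1. The sign turned without wildtype replicate 7 for Catsper1 (0.044), Catsper3 (0.041), Kcnu1 (0.11) and Atp1a4 (0.14), and without mutant replicate 3 for the same 4 genes. It also turned without mutant replicate 5 for Atp1a4 (0.024) and without mutant replicate 8 for Hvcn1. Other turns were Catsper2 with its other probe set (0.028), Kcnu1 with the offset (0.0026) and Hvcn1 without both arrays (0.029). With the offset the median departure on mutant replicate 8 was 0.83. Hvcn1 lay below the median level and had no value under that filter. The cause of these turns was not tested. No paired analysis was possible because the labels give the groups no replicate number in common.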

Other observations

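A further probe set was annotated to both Catsperg1 and Catsperg2 and was counted for neither. It differed by 0.063 (SE 0.17) between mutant and wildtype testis, by 0.13 (SE 0.15) without wildtype replicate 7 and mutant replicate 8, and departed by 0.56 on wildtype replicate 7 and by 0.14 on replicate 8 of the mutant. The probe set of Catsperg2 alone had log2 levels of 4.55 to 5.16 in wildtype and 4.62 to 5.05 in mutant testis, below the array medians.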
